A study of Mus musculus with 2 samples.

Results

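This account covers 41 named genes of fatty acid oxidation and ketogenesis, taken by gene symbol from the array's probe annotation and read on the array from each genotype. Of the 41, 40 had a probe (41 probes, with 2 for Acot3), out of 19318 named genes on the array, and Acsl1 was not analysed here. All 40 gave signal above background on both arrays. The samples are labelled as total RNA of liver at 24 weeks, although the extraction step in the labels speaks of cells. The control genotype was Twist2-Cre. The other genotype, Twist2-Cre/A20fl/fl, carried the same Cre together with floxed alleles of A20 and is called CKO below. Cre is thus present in both groups, and the Twist2 locus is known to drive it in mesenchymal lineages. A20, encoded by Tnfaip3, restrains NF-kB signalling. Each genotype had 1 single-colour array, so no test, p-value or error across animals was possible. The labels read here do not say how many animals went into an RNA.

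Hepatocytes burn fatty acids in a fixed order. Fatty acids are taken up and activated to acyl-CoA, carried into mitochondria as carnitine esters, and shortened by repeated rounds of dehydrogenation, hydration, oxidation and thiolysis, while peroxisomes begin the work on very long and branched chains. In fasting the acetyl-CoA formed is turned into ketone bodies, and the nuclear receptor PPAR-alpha raises most genes of the pathway.

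As a group these genes were at similar levels in both livers. On the normalized scale, which adds an offset of 50 and so shrinks the ratios of dim genes, 20 were higher and 20 lower in the CKO liver, with a median log2 ratio of CKO over control of -0.01. Among 14143 genes above background on both arrays the median was -0.02, with 42.2% higher and 57.7% lower. None of the 40 reached 1.5-fold in either direction, a size reached by 1.7% of all genes on the higher side and by 0.417% on the lower side. Their levels were mostly well above background, so 2240 genes whose mean log2 level lay between the lower and upper quartile of the 40 (8.01 and 11.07) serve as a nearer comparison. By this choice only 20 of the 40 lie in that range themselves. Of the 2240 genes, 3.3% passed 1.5-fold on the higher side and 1.43% on the lower side, with 43.5% higher by any amount and 56.4% lower by any amount. The ratios of the 40 ran from -0.36 to 0.44 with an SD of 0.18. Among the genes of like level the SD was 0.34, with ratios from -1.18 to 3.91. The quartiles were close, at -0.12 and 0.16 for the 40 and -0.16 and 0.1 for the genes of like level. The middle of the 40 was thus not visibly tighter, and the SDs differ mainly through the extremes. In the deposited intensities 0 of the 40 were at least 1.5-fold higher (7.95% of all genes) and 1, Acot2, was 1.5-fold lower (4.75% of all genes).

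The only repeated measurements within an array were control spots. The log2 ratio between the arrays of 24 positive control spots of each kind had an SD of 0.104 for one kind and 0.121 for the other, which covers spot-to-spot error alone, at the brightness of those spots. The control spots were blank-subtracted only, without the offset and normalization used for the 40 ratios, and their mean log2 ratio was 0.16 for either kind. Against the larger SD, 18 of the 40 ratios lay within 1 SD and 6 lay beyond 2 SD (0.242). The latter were Cpt1a and Crot on the higher side and Echs1, Acat1, Etfa and Acot1 on the lower side. Ratios of that size were found in 6.27% of all genes on the higher side and 5.22% on the lower side, and in 11.4% and 14.1% of the genes of like level. Of the 40, 2 were thus higher and 4 lower by this size. Both counts are below the share among genes of like level, and the lower count is above the share among all genes. Only 20 of the 40 lie in that range of level, and the offset shrinks the ratios of the dimmer ones. The sets compared are therefore not fully alike. This size of difference was chosen after the values were seen. Against the scanner's local background column 8 of the 40 had the opposite sign, namely Cpt1a, Cpt2, Acadl, Acaa1a, Decr2, Cd36, Acsl3 and Acot1.

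**Figure D1:**
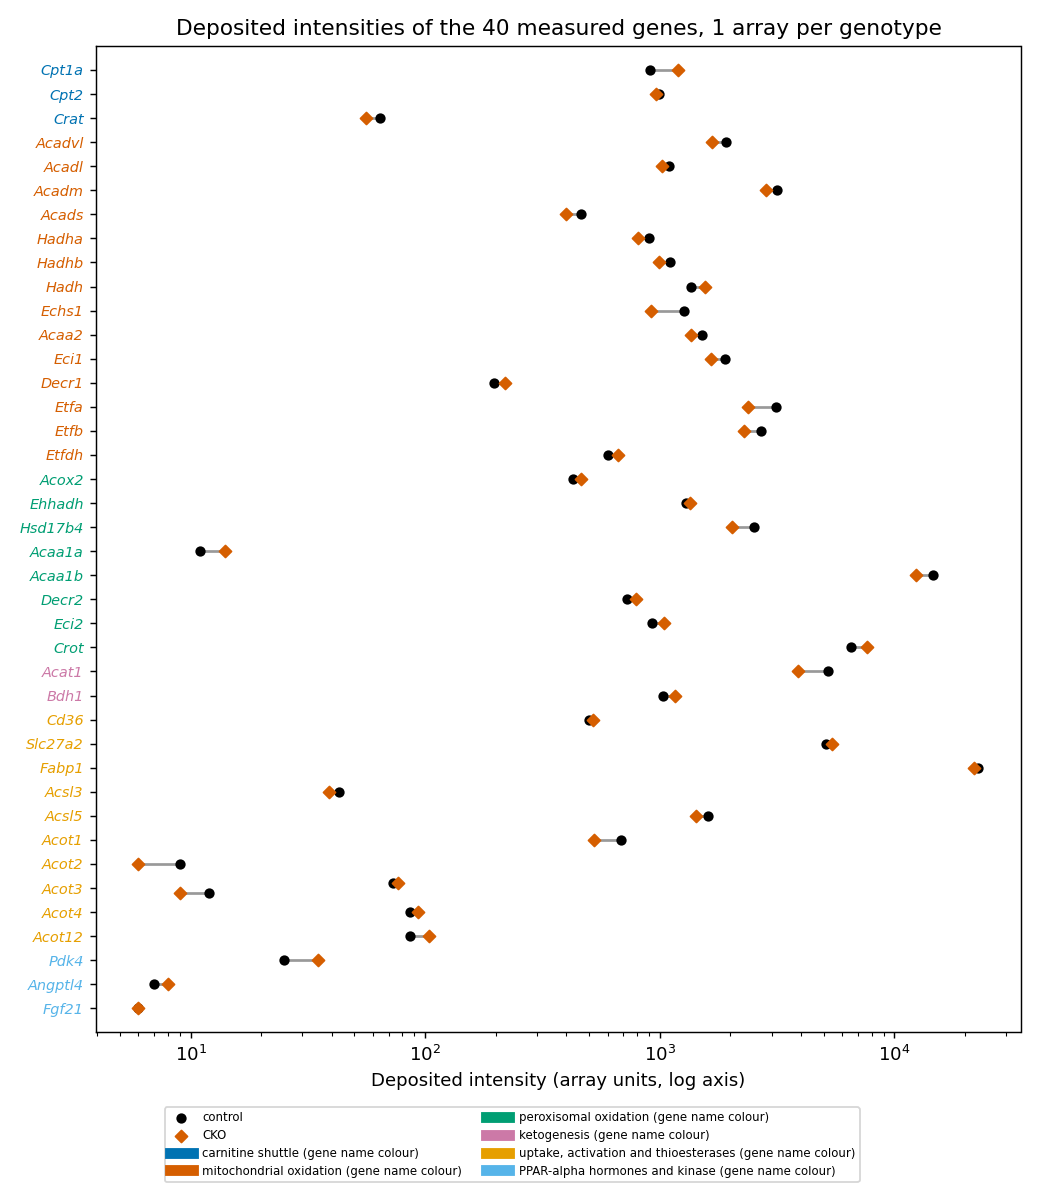
Deposited intensity (array units, log axis) of each measured gene in the control (black circles) and the CKO sample (orange diamonds), 1 array per genotype, with gene names coloured by role and Acot3 drawn as 2 probes. The symbols of a gene lie close together throughout, with the widest gaps on this axis at the dim Acot2 (9 and 6) and Pdk4 (25 and 35). Among brighter genes Echs1 (1266 and 922) and Cpt1a (910 and 1193) are among the wider gaps, and Acot2, Angptl4 and Fgf21 lie at 9 or below on both arrays.

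The carnitine shuttle held the highest ratio of the 40. Cpt1a, the carnitine palmitoyltransferase of the outer mitochondrial membrane and the controlling step of entry, had a deposited intensity of 910 in the control liver against 1193 with CKO. Its log2 ratio was 0.44, or 1.36-fold higher in the CKO liver. Against the scanner's local background column this turned to -0.15. Cpt2, which reforms the acyl-CoA inside, read 997 and 967 (ratio 0.02). Crat, the acetyl-carnitine enzyme, read 64 and 56 (-0.11). On the normalized scale the enzymes of this shuttle did not share a direction, while against the local background column all 3 were lower (Cpt2 -0.02, Crat -0.28).

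The 250 bases before the annotated start of Cpt1a are shown because the gene had the highest ratio, and those of Echs1 because it had the lowest. Both windows hold the hexamer AGGTCA, the core to which nuclear receptors such as PPAR-alpha bind as a repeat, here in capitals on either strand. Sequences are RefSeq's, build GRCm38.p6, 5′ to 3′ on the strand of the gene, with Cpt1a at chr19:3323051-3323300 (plus strand) and Echs1 at chr7:140116422-140116671 (minus strand).
Cpt1a: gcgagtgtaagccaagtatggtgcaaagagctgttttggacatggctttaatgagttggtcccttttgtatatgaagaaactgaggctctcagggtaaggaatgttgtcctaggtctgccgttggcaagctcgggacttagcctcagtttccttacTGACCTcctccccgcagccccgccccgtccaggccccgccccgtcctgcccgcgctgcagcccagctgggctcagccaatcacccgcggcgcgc
Echs1: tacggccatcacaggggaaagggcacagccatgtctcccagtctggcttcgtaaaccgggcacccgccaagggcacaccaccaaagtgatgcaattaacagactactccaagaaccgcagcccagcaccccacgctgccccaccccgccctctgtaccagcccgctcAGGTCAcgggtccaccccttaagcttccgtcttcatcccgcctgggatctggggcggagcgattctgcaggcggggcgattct

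The hexamer lies 94 to 89 bases before the start in Cpt1a, on the opposite strand, and 83 to 78 bases before it in Echs1. It occurs in 9 of the 35 listed genes that have a promoter window, in 9 of their 39 windows (23.1%), and in 14.0% of all 32851 promoter windows of this length. The genes with the highest and the lowest ratio thus both carry it, and a match is no more than a description of these letters.

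Mitochondrial oxidation leaned to the lower side. Of 14 listed genes 10 were lower and 4 higher, with a median log2 ratio of -0.11, against -0.03 among the genes of like level. Lower ratios were found in 57.7% of all genes and in 56.4% of the genes of like level. The lowest of all 40 ratios was that of Echs1, the short-chain enoyl-CoA hydratase of the second step of each round. It read 1266 in the control against 922 in the CKO liver, a ratio of -0.36 or 1.29-fold lower. The 4 acyl-CoA dehydrogenases, which open each round and differ in the chain length they take, had ratios near 0. Acadvl (very long chains) read 1926 and 1676 (-0.13), and Acadl (long chains) read 1093 and 1022 (-0.02). Acadm (medium chains) read 3164 and 2846 (0.01), and Acads (short chains) read 460 and 398 (-0.14). The signs of Acadl and Acadm turn with the scaling, the former with plain subtraction, cyclic loess and the local background column and the latter with median scaling, cyclic loess and the deposited values.

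Hadha and Hadhb encode the alpha and beta subunits of the mitochondrial trifunctional protein, which carries out the later steps on long chains. Hadha read 903 and 807 and Hadhb read 1104 and 989, which gave ratios of -0.10 and -0.08. The subunits thus had nearly the same ratio, within 1 control-spot SD of 0. Their genes lie head to head with 272 bases between the annotated starts, and the sequence is shown because a single stretch stands before both. It is the 250 bases before the start of Hadhb at chr5:30155003-30155252 (plus strand, GRCm38.p6, RefSeq). Capitals mark the 228 bases that also lie within 250 bases before the start of Hadha.
Hadhb: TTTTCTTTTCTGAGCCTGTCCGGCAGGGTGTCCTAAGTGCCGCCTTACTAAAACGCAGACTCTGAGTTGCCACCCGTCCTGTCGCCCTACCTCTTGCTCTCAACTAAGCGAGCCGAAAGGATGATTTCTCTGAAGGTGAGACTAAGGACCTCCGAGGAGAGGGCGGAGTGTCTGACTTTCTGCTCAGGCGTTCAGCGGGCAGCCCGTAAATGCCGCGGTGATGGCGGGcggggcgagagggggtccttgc

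Hadh, the dehydrogenase of the third step for shorter chains, read 1359 and 1553 and had the highest ratio of the mitochondrial genes, 0.24. Acaa2, the thiolase that ends each round, read 1518 and 1356 (-0.12). The steps acting on shorter chains thus held both the lowest and the highest ratio of this compartment. Of the auxiliary enzymes for unsaturated chains, Eci1 read 1890 and 1647 (-0.14) and Decr1 read 197 and 218 (0.13). The electron transfer flavoprotein, which takes electrons from the dehydrogenases, is made of the products of Etfa and Etfb. Etfa read 3145 and 2369 (-0.29) and Etfb read 2716 and 2290 (-0.14), both lower in the CKO liver. Etfdh, which passes those electrons to ubiquinone, read 604 and 666 (0.20) and stood on the other side. The annotation assigns the Etfb probe to a non-coding transcript variant of that gene, as it does for Eci2.

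**Figure D2:**
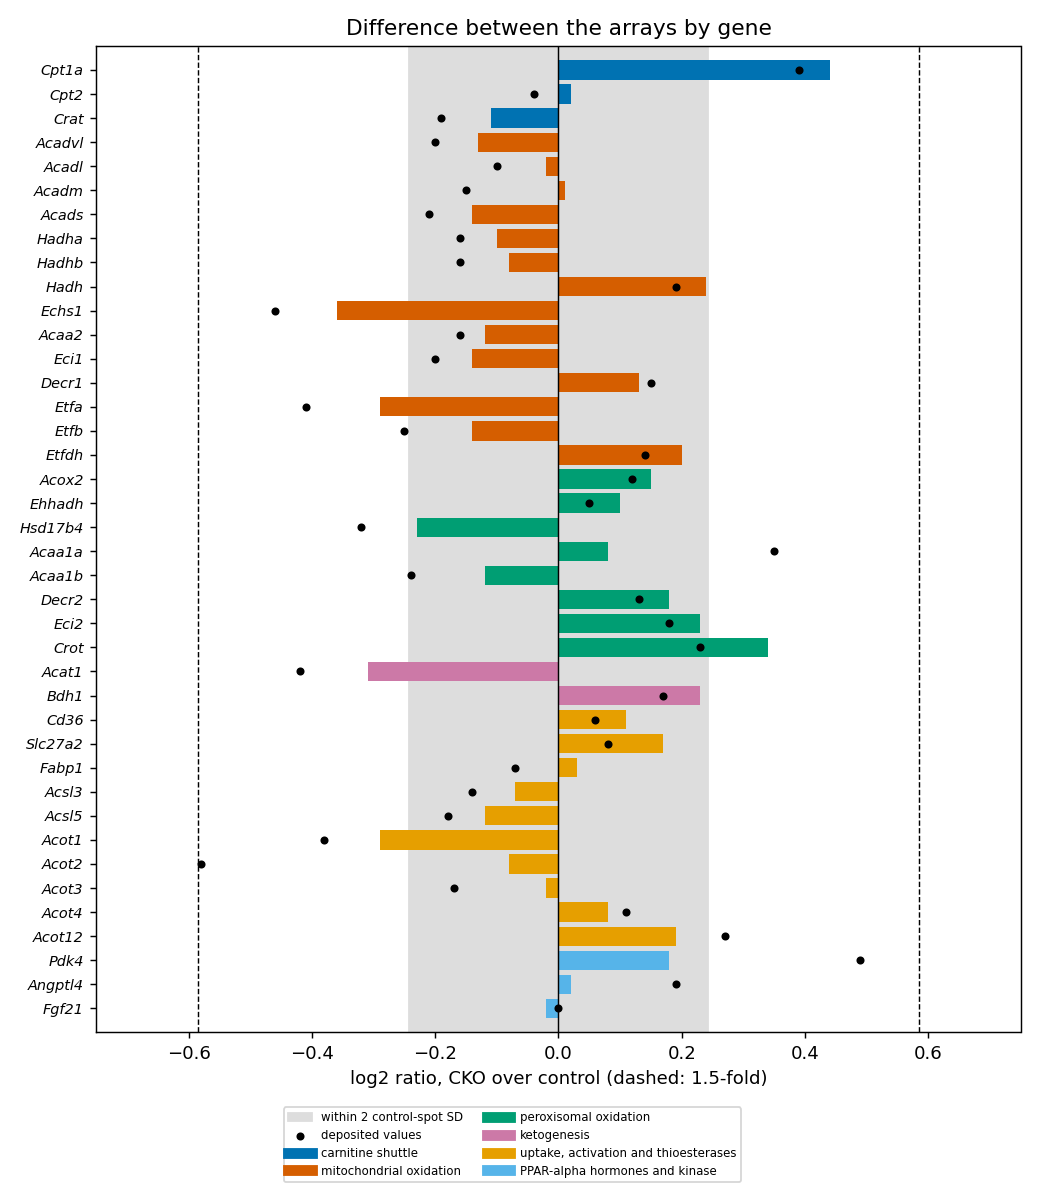
Log2 ratio of CKO over control for each measured gene on the normalized scale (bars, coloured by role) and in the deposited values (black dots), 1 array per genotype, with the grey band marking 2 SD of control spots (0.242) and dashed lines marking 1.5-fold. The 6 bars that leave the band are those of Cpt1a and Crot to the right and those of Echs1, Acat1, Etfa and Acot1 to the left, and none reaches a dashed line.

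Peroxisomal oxidation leaned the other way. Of 8 listed genes 6 were higher and 2 lower, with a median of 0.13, against -0.03 among the genes of like level. Higher ratios were found in 42.2% of all genes and in 43.5% of the genes of like level. The lean is that of the 8 listed genes only. Crot, which turns shortened chains into carnitine esters for export, had the highest ratio. It read 6540 and 7644, a ratio of 0.34 or 1.26-fold higher in the CKO liver. Eci2 and Decr2, which act on unsaturated chains, read 923 and 1045 (0.23) and 722 and 789 (0.18, but -0.43 against the local background column), while Acox2, the oxidase of branched chains and bile acid side chains, read 426 and 462 (0.15).

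The bifunctional proteins of the peroxisome, which share the middle steps, differed in direction. Ehhadh read 1298 and 1346 (0.10). Hsd17b4 read 2527 and 2031 (-0.23), the lowest ratio of this compartment. Of the thiolases, Acaa1b read 14661 and 12381 (-0.12), and Acaa1a, close to background at 11 and 14, had a ratio of 0.08. Acaa1a and Acaa1b are near copies whose transcripts a probe may share, so the split between them is uncertain. The mitochondrial genes had 9 to 11 of 14 lower under every alternative scaling and background setting run, all on the same 2 arrays. In the main setting 57.7% of all genes were lower, and that share is not given here for the other settings. With plain subtraction the median of the 14 was -0.04, against 0.04 among the genes of like level. For the local background column these medians were -0.17 and -0.09. The lean of the peroxisomal genes kept its direction in all but the local background column, where 4 of 8 were higher and the median was 0.00. The difference between the compartments was not tested, since genes are not replicates.

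Ketogenesis was measured here by its first and last enzymes among the listed genes. Acat1, the acetoacetyl-CoA thiolase of mitochondria, read 5221 in the control against 3905 in the CKO liver, a ratio of -0.31 or 1.24-fold lower. Bdh1, which interconverts acetoacetate and beta-hydroxybutyrate, read 1029 and 1158 (0.23). The pair thus lay on opposite sides, and each kept its sign in all 6 alternative settings that rescale the values or change the background.

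Genes of uptake, activation and hydrolysis were split evenly, with 5 of 10 higher, 5 lower and a median of 0.01. Fabp1, the fatty acid binding protein of the hepatocyte cytosol, read 22856 and 21817 (0.03, and below 0 in the deposited values and with median scaling). Slc27a2, a transporter that also activates very long chains, read 5122 and 5416 (0.17). Neither of these hepatocyte genes differed by as much as 2 control-spot SD. Acsl5, an acyl-CoA synthetase, read 1608 and 1422 (-0.12), and its relative Acsl3 read 43 and 39 (-0.07).

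Fabp1 is a textbook target of PPAR-alpha, and its promoter is shown because it was the only listed gene whose 250 bases hold the hexamer AGGNCA (N is any base) repeated in the same direction with 1 base between the copies, a spelling of the element that PPAR-alpha and its partner bind. The match, in capitals, is on the opposite strand, 67 to 55 bases before the start, and includes AGGTCA. A further AGGTCA, also on the opposite strand, lies 9 to 4 bases before the start and is left in lower case. Both strands were searched, and 0.338% of all windows and 1 of the 39 windows of the listed genes held it. The window is chr6:71199629-71199878 (plus strand, GRCm38.p6, RefSeq), 5′ to 3′.
Fabp1: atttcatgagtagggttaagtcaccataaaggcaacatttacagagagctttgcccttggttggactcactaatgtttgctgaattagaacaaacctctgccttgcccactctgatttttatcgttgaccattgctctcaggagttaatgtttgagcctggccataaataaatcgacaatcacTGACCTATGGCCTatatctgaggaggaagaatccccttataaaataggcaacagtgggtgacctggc

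Cd36, a fatty acid receptor of hepatocytes, macrophages and endothelium, read 500 and 522, a ratio of 0.11. Markers of those other cell types are given beside Cd36. All 11 macrophage markers above background on both arrays were higher in the CKO liver except, against the local background column, Clec4f and Vsig4. Their summed deposited intensity, over 12 markers, was 2735 and 9144, with Adgre1 not listed on the control array. Of 7 endothelial markers above background 5 were lower and 2 higher (sum over 8 markers 1224 and 817), where 57.7% of all genes were lower. Against the local background column the lower ratios of Lyve1 and Vwf turned to 0.06 and 0.04. In RNA from a tissue, fewer cells of a type and less RNA per cell cannot be told apart, and the part of these cells in the Cd36 value was not tested.

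The acyl-CoA thioesterases, which release free fatty acids or acetate from CoA, were mostly dim. Acot1, the cytosolic enzyme, read 682 and 524, a ratio of -0.29 or 1.22-fold lower in the CKO liver, which turned to 0.90 against the local background column. Acot12, which cleaves acetyl-CoA, read 86 and 104 (0.19), and the peroxisomal Acot4 read 86 and 93 (0.08). Acot2, the mitochondrial enzyme, read 9 and 6. Its 1.5-fold difference in the deposited values is 3 array units near background, and its ratio was -0.08 on the offset scale. The probes of Acot3 disagreed in sign, with 73 and 77 on one (0.05) and 12 and 9 on the other (-0.09). Acot1, Acot2, Acot3 and Acot4 are neighbouring near copies, so the split of signal between them is uncertain.

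The secreted and regulatory products of the PPAR-alpha programme were near background on both arrays. Pdk4, the kinase that shuts pyruvate dehydrogenase when fat is burned, read 25 and 35. With the offset its ratio was 0.18, against 0.49 from the deposited values and 0.57 by plain subtraction, so its size depends on how background is handled. Angptl4, an inhibitor of lipoprotein lipase, read 7 and 8 (0.02). Fgf21, a fasting hormone of the liver, read 6 and 6 (-0.02). Intensities this close to background leave little room to measure a lower level of Angptl4 or Fgf21.

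**Figure D3:**
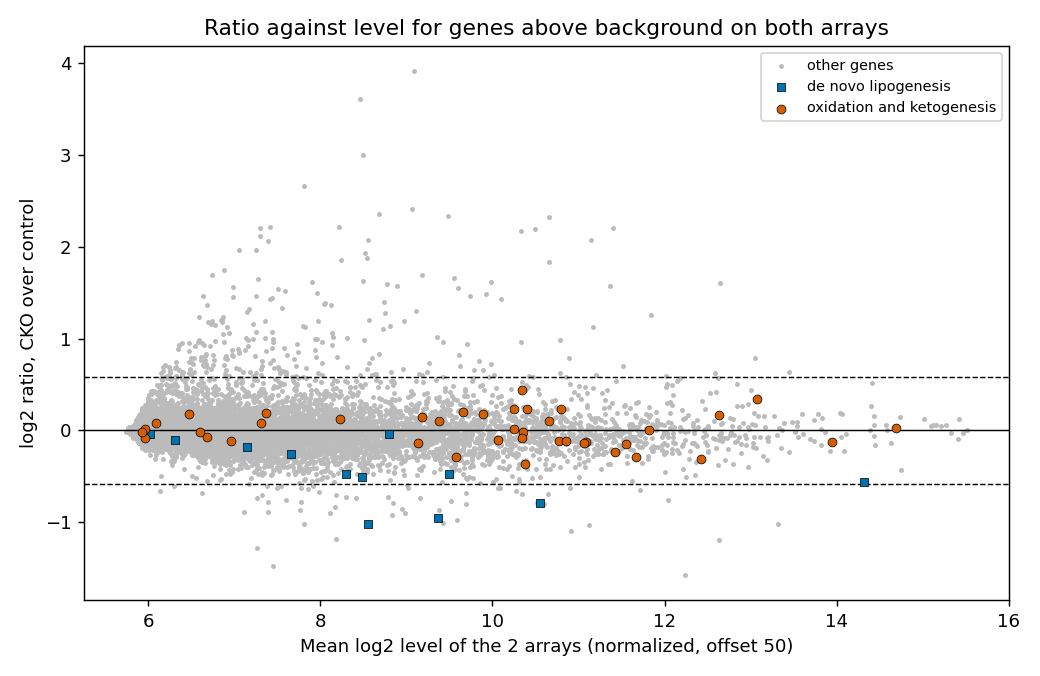
Log2 ratio of CKO over control against mean log2 level on the normalized scale for genes above background on both arrays, with the 40 oxidation and ketogenesis genes as orange circles, 12 genes of de novo lipogenesis as blue squares, other genes in grey and dashed lines at 1.5-fold. The orange circles lie between -0.36 and 0.44 over the whole range of levels, while 3 blue squares lie below the lower dashed line.

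Other genes of the pathway, from lists that were written with earlier results of these data known, are given for comparison. Among the 76 that gave signal above background, 2 passed 1.5-fold on the higher side (Nr1d1 and Plin2) and 2 on the lower side (Hacl1 and Cyp4a14). The shares among all genes were 1.7% and 0.417%. Among 23 further oxidation and ketone genes the median was 0.02, with 14 higher and 9 lower. Hacl1, which splits branched and hydroxylated chains in peroxisomes, read 3588 and 2188 (-0.64), and Ech1, an auxiliary isomerase, read 2963 and 2180 (-0.35). Oxct1, which uses ketone bodies and is low in hepatocytes, read 31 and 53 (0.36). Acad10, an acyl-CoA dehydrogenase relative, read 240 and 177 (-0.34). Against the local background column Hacl1 had the opposite sign.

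Among 18 further genes of uptake, activation and hydrolysis the median was -0.03, and none reached 1.5-fold. The medium-chain synthetase Acsm3 read 514 and 346 (-0.48), the acyl-CoA binding protein Dbi 9271 and 6884 (-0.32), the thioesterase Acot13 787 and 593 (-0.32) and Acsm5 129 and 151 (0.18). Of 19 regulators the median was 0.01. Ppara itself read 607 and 572 (-0.01). Nr1d1, a nuclear receptor of the circadian clock, read 17 and 52. With the offset of 50 its ratio was 0.64, against 1.02 when the offset was 16, 1.71 by plain subtraction and 1.61 from the deposited values, so its size depends on how background is handled. Pparg, found in fat cells and macrophages, read 34 and 63 (0.44). Angptl8 read 271 and 208 (-0.30) and the fasting factor Creb3l3 1368 and 1520 (0.19). The part of the macrophage markers, higher as given above, in the Pparg value was not tested. Against the local background column Nr1d1 and Pparg had ratios of -0.01 and 0.01.

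Targets of PPAR-alpha outside oxidation spread further than the oxidation genes. Among 16 the median was -0.01 and the SD 0.51, against 0.18 for the 40. Their quartiles were -0.1 and 0.3, against -0.12 and 0.16 for the 40. The SD of the 16 thus leans on the outermost ratios, -1.57 and 0.79. Cyp4a14, an omega-hydroxylase, read 7065 and 2252 (-1.57), while its neighbour in the family Cyp4a31 read 352 and 455 (0.37). Plin2, a lipid droplet coat, read 1193 and 1979 (0.79), and Retsat, a retinol saturase, read 2089 and 1388 (-0.51). CYP4A genes are close in sequence, and a probe may read more than 1 of them.

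Fatty acid synthesis, the opposing pathway, had 12 of 12 genes above background lower, or 11 with plain subtraction and 9 against the local background column. Among all genes 57.7% were lower. The median was -0.48, and 3 were past 1.5-fold on the lower side, where 0.417% of all genes lay. Among the genes of a level like that of the 40 oxidation genes that share was 1.43%. The 3 lipogenesis genes were Thrsp (412 and 174, -1.02), Fasn (744 and 351, -0.95) and Me1 (1641 and 893, -0.79). Scd1 followed (21634 and 13480, -0.56). The oxidation genes had 20 of 40 lower and none past 1.5-fold on the same scale. The difference between these lists was not tested, and the lipogenesis list too was written with earlier results of these data known.

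**Figure D4:**
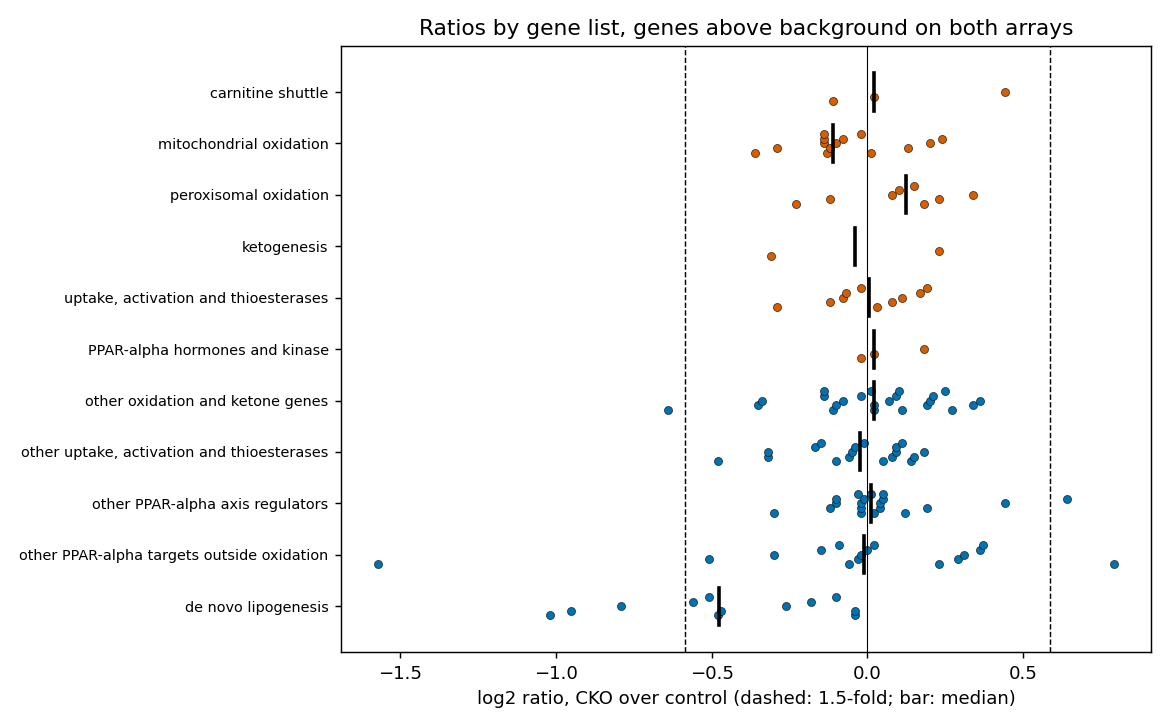
Log2 ratio of CKO over control for each gene above background on both arrays, by list, with oxidation and ketogenesis genes by role in orange, other lists in blue, black bars at each list's median and dashed lines at 1.5-fold. The medians of the mitochondrial (-0.11) and peroxisomal (0.13) genes lie either side of 0, and that of lipogenesis lies at -0.48.

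The labelled tissue matched its markers. All 12 hepatocyte markers were above background on both arrays, with a summed deposited intensity of 197525 and 184558 and a median ratio of 0.02. Fat cell and muscle tissue also express many oxidation genes. Of 4 fat cell markers 1 was above background on both arrays (summed deposited intensity 13 and 9), and Adipoq and Lep were not listed on either. Of 6 muscle markers 4 were above background, with 1 higher and 3 lower (summed deposited intensity 63 and 80), and Acta1 and Myh7 were not listed on either array. Their part in the values of the oxidation genes was not tested. Tnfaip3 read 41 and 38 (-0.07). The position of its probe relative to the floxed part is not known here, and RNA of liver also comes from cells outside the mesenchymal lineages. For both reasons this value does not check the genotype. On both arrays about the same share of gene probes was above background (73.8% control, 73.6% CKO). Precision is limited throughout by having 1 array per genotype.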

How the data were processed

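Liver RNA of 1 control and 1 CKO sample, grouped by the genotype in the labels, was measured on 2 single-colour arrays. Per the labels' protocols it was amplified, coupled to Cy5 and fragmented. The deposited scanner files hold spot and local background intensity at 3 gains joined by least-squares lines, per the file headers. The deposited value table is also intensity on a linear scale, uncentred (median 25 on both arrays). How it was made is not stated, but its entries equal the spot intensity minus the trimmed blank mean, times 0.859 (control) or 0.825 (CKO), within 1.53 array units. Its columns are levels of 1 sample each.

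Spots that failed at any gain (4, 0 of them of the listed genes) were left out. Intensities were corrected with normexp (limma 3.58.1, R 4.3.3) against the mean of 384 blank spots (67.2 and 69.3), offset 50, quantile-normalized and averaged as log2 over the probes of a gene. The local background column followed the spot's own signal (r = 0.988 and 0.972 across spots) and was kept as an alternative only. Above background means over the blank mean plus 2 SD (69.5 and 72.2). Of 23469 gene probes 20686 had 1 symbol, 0 several and 2783 none. These steps were tested on simulated data.

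With 1 array per group, sizes (1.5-fold) stand in for tests. The genes and lists were chosen with earlier results of these data known. Named were all listed genes and, of other lists, up to 4 with the largest absolute ratio, plus Ppara and Tnfaip3; single marker genes were chosen after their values were seen. Alternatives varied background, offset, scaling, filter, probe choice and the value table. Promoter windows came from RefSeq.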

Additional observations from a re-analysis of the deposited data

How the results depend on the processing

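The median ratio of the 40 genes stayed between -0.08 and 0.06 under every alternative run, and none passed 1.5-fold in either direction except against the local background column (5 higher, 6 lower, with 5.63% and 4.46% of all genes) and in the deposited values (1 lower, Acot2). The 2 higher and 4 lower beyond 2 control-spot SD became 13 higher with plain subtraction (30.4% of all genes, whose median moved to 0.08), 5 higher with cyclic loess (7.62%), 9 higher and 11 lower against the local background column (11.6% and 14.3%), and 4 higher and 8 lower in the deposited values (19.3% and 26.1%). Of other pathway genes past 1.5-fold, 2 were higher and 2 lower in the main setting (1.7% and 0.417% of all genes). With plain subtraction 8 were higher (11% of all genes), and with offset 16 4 were higher (3%). Against the local background column 11 were higher and 12 lower (5.63% and 4.46%). In the deposited values 6 were higher and 4 lower (7.95% and 4.75%). The shares of all genes thus rose in these settings as well. With cyclic loess 1 other pathway gene was lower. Lipogenesis genes past 1.5-fold lower were 5 against the local background column (4.46% of all genes) and 6 in the deposited values (4.75%). Against the local background column Hacl1 (1.0) and Nr1d1 (-0.01) changed sign. The cause of these shifts was not tested, and 28 of the 40 kept their sign in all 6 settings that change scale or background. Leaving out a replicate was not possible with 1 array per group. No paired analysis was possible because each group has 1 array.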
